A study of Mus musculus with 10 samples.

Results

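Neurons use 4 families of secreted and membrane-bound cues, and the receptors that read them, to steer axons during development and to adjust synapses later in life. Semaphorins act through plexins, with neuropilins as co-receptors for the secreted class 3 semaphorins. Ephrins on the surface of a cell bind Eph receptors on its neighbour and can signal in both directions. Slits repel axons through Robo receptors. Netrins attract through Dcc and repel through Unc5 receptors, and neogenin (Neo1) is a relative of Dcc. The paraventricular hypothalamus (PVH) holds neurons that send axons to the pituitary and others that project to the hindbrain. The genes described here were found by symbol in the count table and number 70 of its 48397 genes, 35 ligands and 35 receptors. They comprise 31 semaphorins, plexins and neuropilins, 22 ephrins and Eph receptors, 7 Slits and Robos, and 10 genes of the netrin family, in which Draxin, a secreted Dcc ligand, was counted as a ligand.

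The cells were picked by hand from the PVH of male mice over 7 weeks old that carried Agrp-IRES-Cre and the Ai9 reporter, all in the same group, so no conditions were compared. In this cross Cre is made by AGRP neurons, whose axons then carry tdTomato. The labels describe the picked cells as labelled neurons, whereas the methods used the AGRP axons to mark the PVH boundary. Each of 10 plates was a sample and served as the replicate, 4 with the name prefix Q, 2 with AL and 4 with JM, and since the sources used here do not say which animals were on which plate, p-values measure only the spread between plates.

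The study's table kept 706 cells of the 960 wells and gave each a cluster number from 1 to 15, with 664 cells in the 12 clusters assigned to the PVH and 42 cells in clusters 5, 6 and 11, which were set aside as lying outside it. Totals ran from 50646 to 1078101 unique molecular identifiers (UMIs) per cell, with a median of 235270 on the Q plates and 85167 on the AL and JM plates. Sim1, a transcription factor of PVH neurons, was found in 32% to 83.3% of the cells of each PVH cluster, and Slc17a6, the vesicular glutamate transporter, in 60.4% to 96.5%. Clusters are called here by their number and by the highest of 7 neuropeptide genes, where Oxt and Avp counted only above 10000 counts per 1000000 UMIs (CPM) because they were detected in most cells of all clusters. Clusters 1 and 12 were highest in Oxt, clusters 2, 3 and 4 in Avp, 7 and 8 in Sst, 9 and 15 in Trh, 10 and 13 in Crh, and 14 in Penk. These names rest on pooled levels and do not mean that most cells of a cluster hold the peptide. Crh was found in 7 of 16 cells of cluster 13, where Pdyn was in 15. Penk was found in 26 of 57 cells of cluster 14, where Crh was in 57, and Trh in 25 of 60 cells of cluster 15. Clusters 4, 12 and 13 had no cell on a Q plate and cluster 3 had 1, whereas 48 of the 53 cells of cluster 2 and 40 of the 42 cells of cluster 8 came from Q plates.

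Most of these genes were detectable in adult PVH neurons, but few were widespread. Of the 70 genes, 7 had at least 1 UMI in over 40% of the 664 PVH cells, 40 in 5% to 40%, 22 in fewer than 5%, and Sema3g in none. A count of 0 is given here with a limit of 3 cells, for Sema3g 0.452% of cells, which limits cells with a UMI and not cells that express the gene at a level missed at this depth. Each family had a widely detected member. Plxnc1, the receptor of the membrane-anchored Sema7a, was found in 506 cells (76.2%, 95% confidence interval 72.8 to 79.4), with 62.5% on the lowest plate and 90.5% on the highest. The transmembrane ephrin Efnb3 was found in 487 cells (73.3%, 69.8 to 76.7), Slit2 in 386 cells (58.1%, 54.3 to 61.9), and the netrin receptor Unc5c in 348 cells (52.4%, 48.5 to 56.3). The remaining 3 over 40% were Sema4a, Epha5 and Neo1. The lowest of the 7, Neo1, stood at 41.3% of cells and the nearest gene below the line, Sema6b, at 39.3%. The count of 7 was 4 when 3 UMIs or more were asked for, and 10 when only AL and JM plates were used. The intervals, other than the limits of 3 cells, are exact Clopper-Pearson intervals, and both cover counting error only.

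**Figure D1:**
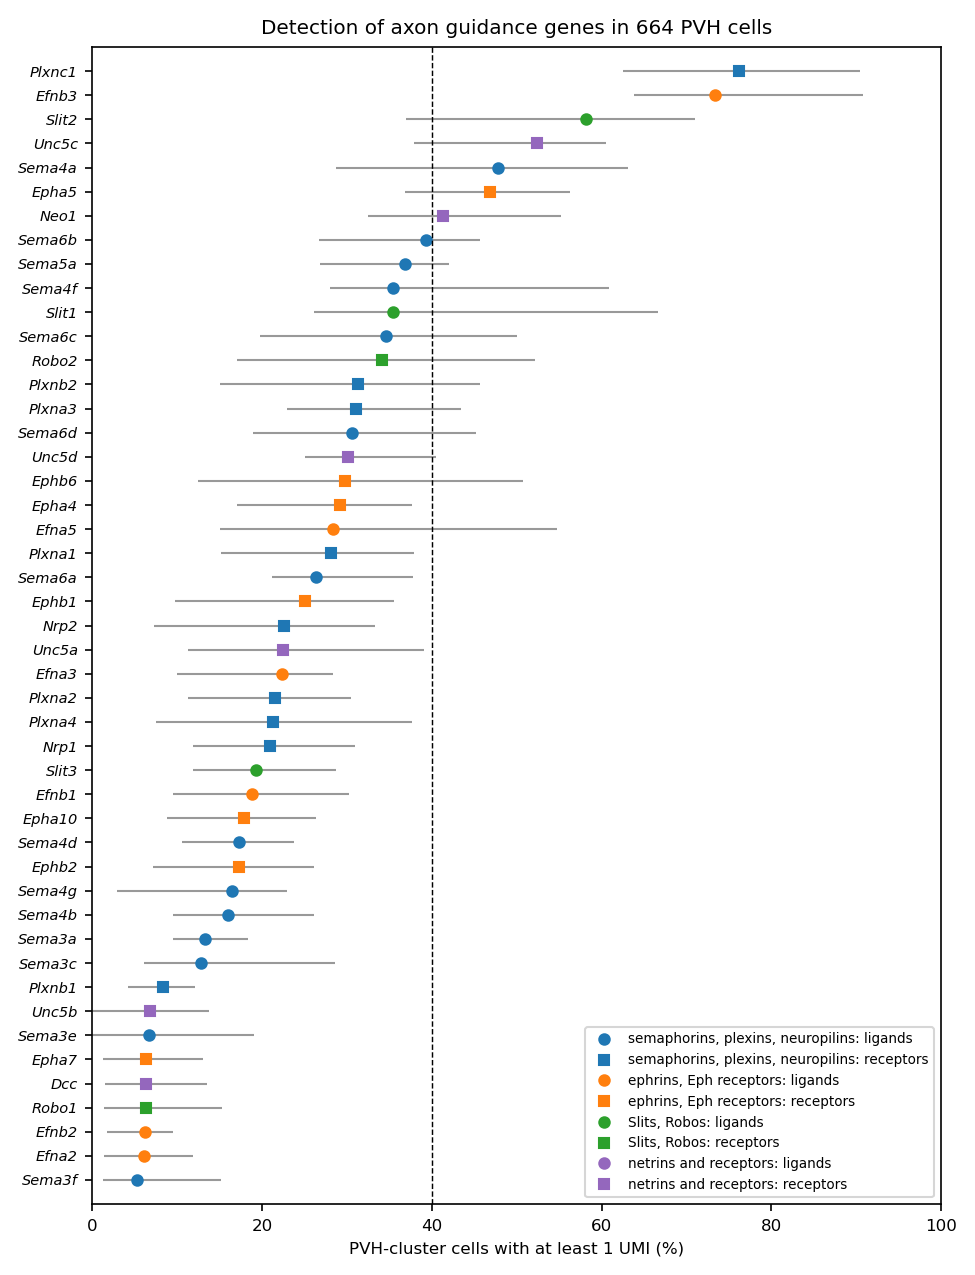
Share of the 664 PVH cells with at least 1 UMI of each gene, in percent (x axis), for the genes found in 5% or more of the cells (y axis). Circles are ligands, squares are receptors, colours are the families, grey lines run from the lowest to the highest of the 10 plates, and the dashed line is at 40%; 7 genes lie to its right, from Neo1 at 41.3% to Plxnc1 at 76.2%.

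Ligands and receptors of the same family differed in how often they were found. The netrin receptors ranged from 42 cells for Dcc (6.33%) to 348 for Unc5c, while their ligands were rare, with Ntn1 in 8 cells (1.20%, 0.522 to 2.36), Ntn4 in 10, Draxin in 2 and Ntn5 in 1. Sema7a was found in 4 cells (0.602%, 0.164 to 1.54), all of which also held its receptor Plxnc1. Among the Robo receptors, Robo2 was found in 227 cells (34.2%, 30.6 to 37.9) and Robo1 in 42, while Robo3 was found in 5 cells and the endothelial Robo4 in 1. All 3 Slits were common by comparison, with Slit1 in 235 cells and Slit3 in 128. Among the ephrins, Efnb3, Efna5 (188 cells), Efna3 (148) and Efnb1 (125) were frequent, whereas Efna1 and Efna4 were found in 4 and 5 cells. These shares depend on depth, and UMIs of a gene were counted at the 3′ end, so levels are compared between clusters and not between genes. The shares also differed between plate prefixes in both directions. Robo2 stood at 22.1% of cells on the deeper Q plates and 44.5% on the others, and Unc5c at 54.7% and 50.4%.

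A cell of the PVH clusters held a median of 12 of the 70 genes (2 to 27), 6 ligands and 6 receptors. The number of receptors was highest in cluster 14, with a mean of plate medians of 8.31 ± 1.85 (SD, n = 8 plates), and in cluster 12, with 8.08 ± 1.80 (SD, n = 6). It was 4.93 ± 1.30 (SD, n = 7) in cluster 10 and 5 ± 0.935 (SD, n = 5) in cluster 2. With every cell thinned to 63046 UMIs, which left 600 PVH cells after the shallower ones were dropped, clusters 14 and 12 stood at 8.25 ± 2.55 (SD, n = 8) and 8.40 ± 1.52 (SD, n = 5) receptors, and clusters 10 and 2 at 4.50 ± 1.22 (SD, n = 6) and 3.88 ± 0.629 (SD, n = 4). These differences between clusters were not tested.

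**Figure D2:**
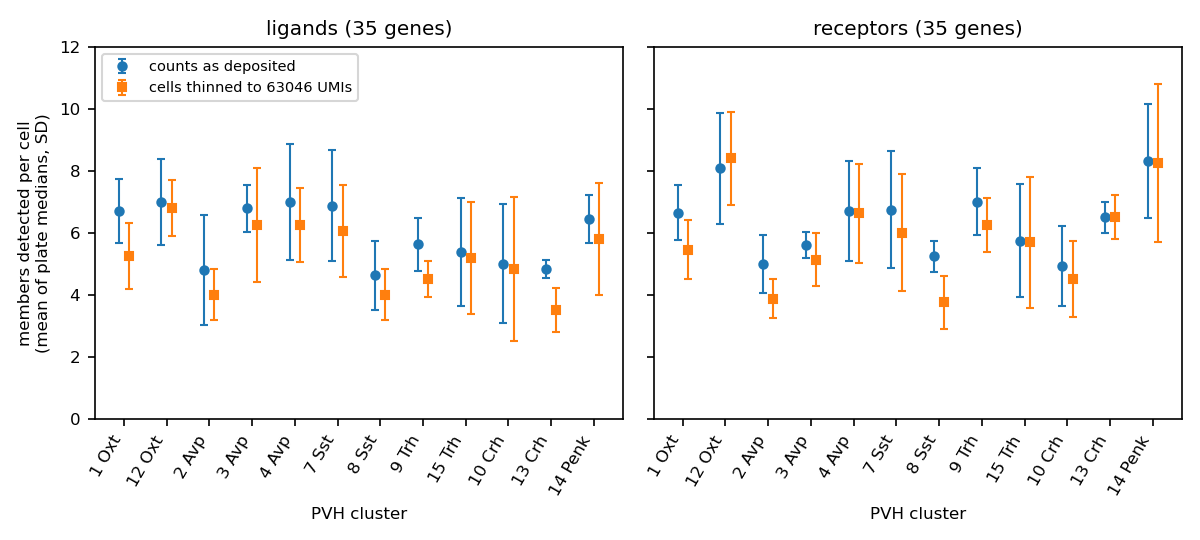
Number of ligands (left) and receptors (right) detected per cell (y axis) in each PVH cluster (x axis), as the mean of the plate medians with the SD over plates. Circles are counts as deposited and squares are cells thinned to 63046 UMIs; receptors lie highest in clusters 12 and 14, at 8.08 and 8.31 as deposited.

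To ask whether the genes differed among the PVH clusters, UMIs were summed per plate and cluster and all 12 clusters were tested together with the plate as a block. Of 49 members with enough UMIs, 23 passed an adjusted p of 0.05 (edgeR quasi-likelihood F test with Benjamini-Hochberg adjustment over all 13082 genes tested), against 21.2% of all genes tested. Receptors passed in 15 of 26 cases and ligands in 8 of 23. By family, the test was passed by 8 of 24 semaphorin, plexin and neuropilin genes, 7 of 14 ephrin and Eph genes, 4 of 5 Slit and Robo genes, and 4 of 6 netrin receptors. The clusters were made by the study from the expression of the same cells, so these tests are not independent evidence that the clusters differ. They set a difference against the spread between plates, estimated in part from other genes, and do not measure how evenly it recurred. In the Q plates alone, 3 members passed (Nrp1, Nrp2 and Epha5), against 3.21% of all genes. With sums of at least 5 cells 8 of the 23 no longer passed (Epha7, Sema5a, Sema6a, Slit2, Slit3, Unc5a, Unc5b and Unc5c). With only AL and JM plates 15 were kept and 6 were lost (Efnb2, Ephb1, Robo1, Sema3a, Sema5a and Sema6a). In DESeq2 17 were kept and 4 were lost (Efnb2, Epha7, Robo1 and Sema3a), and in thinned cells 21 were kept and 1 was lost (Unc5b). Members in neither count had no adjusted p under that setting. Of all genes, 12.6% passed with sums of at least 5 cells and 14.6% with only AL and JM plates. In DESeq2 17.4% of all genes passed, and in thinned cells 16.7%.

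**Figure D3:**
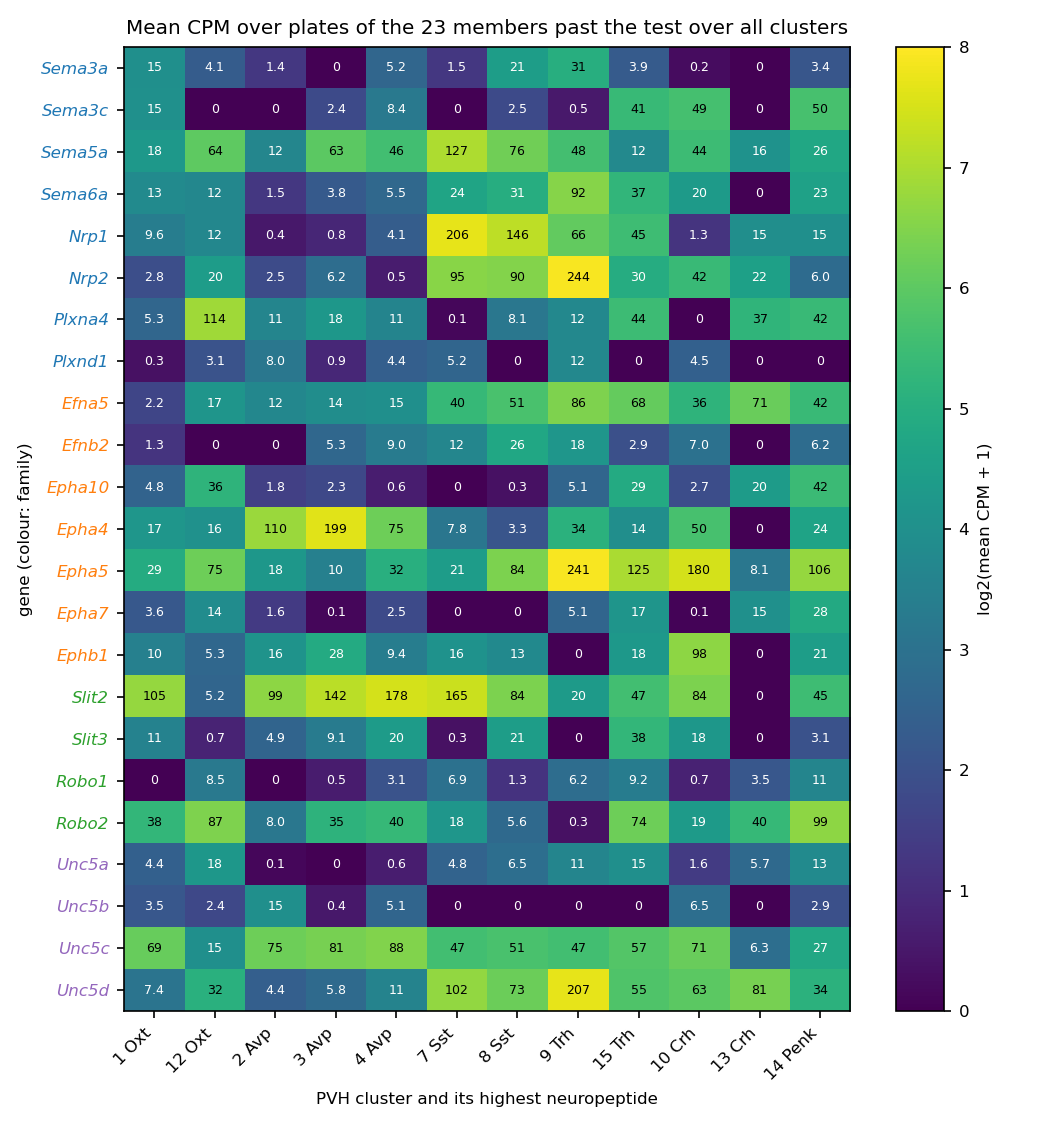
Mean CPM over plates (numbers in the cells, colour on a log2 scale) of the 23 members that passed the test over all clusters (y axis, coloured by family) in the 12 PVH clusters (x axis, with the highest neuropeptide). High values sit in different clusters for different receptors, with Nrp1 at 206 in cluster 7, Epha4 at 199 in cluster 3, Epha5 at 241 in cluster 9 and Plxna4 at 114 in cluster 12.

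Each cluster was then compared with the sum of the other PVH clusters on the same plates. In 480 tests of a member in a cluster, 14 were called higher and 23 lower, against 1.05% and 2.24% of the tests of all genes. By cluster, cluster 2 had 1 member higher and 1 lower (0.469% and 0.793% of all genes), cluster 3 had 2 higher (1.04%) and none lower (1.91%), and cluster 7 had 4 higher and 3 lower (1.11% and 4.97%). Cluster 9 had 2 higher (0.472%), cluster 10 had 2 higher and 3 lower (0.913% and 3.55%), and cluster 12 had 1 higher and 2 lower (0.651% and 1.26%). Cluster 13 had 1 lower (1.13%), and cluster 14 had 1 higher and 1 lower (1.42% and 3.98%). The calls fell on 20 members and 9 clusters, and 131 of the 480 tests had an unadjusted p under 0.05. Clusters 4, 8 and 15 had no called member in edgeR, and there 0.243%, 0.0326% and 0.0678% of all genes were called higher and 0.427%, 0.0408% and 1.81% lower. At an unadjusted p under 0.05 they had 0, 3 and 0 members higher and 5, 3 and 10 lower, and DESeq2 called 0, 3 and 0 higher and 3, 2 and 7 lower. Of all genes, DESeq2 called 4.04%, 2.5% and 7.85% in these clusters in either direction. Fold changes below are on the log2 scale with a standard error (SE) taken from the F statistic.

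**Figure D4:**
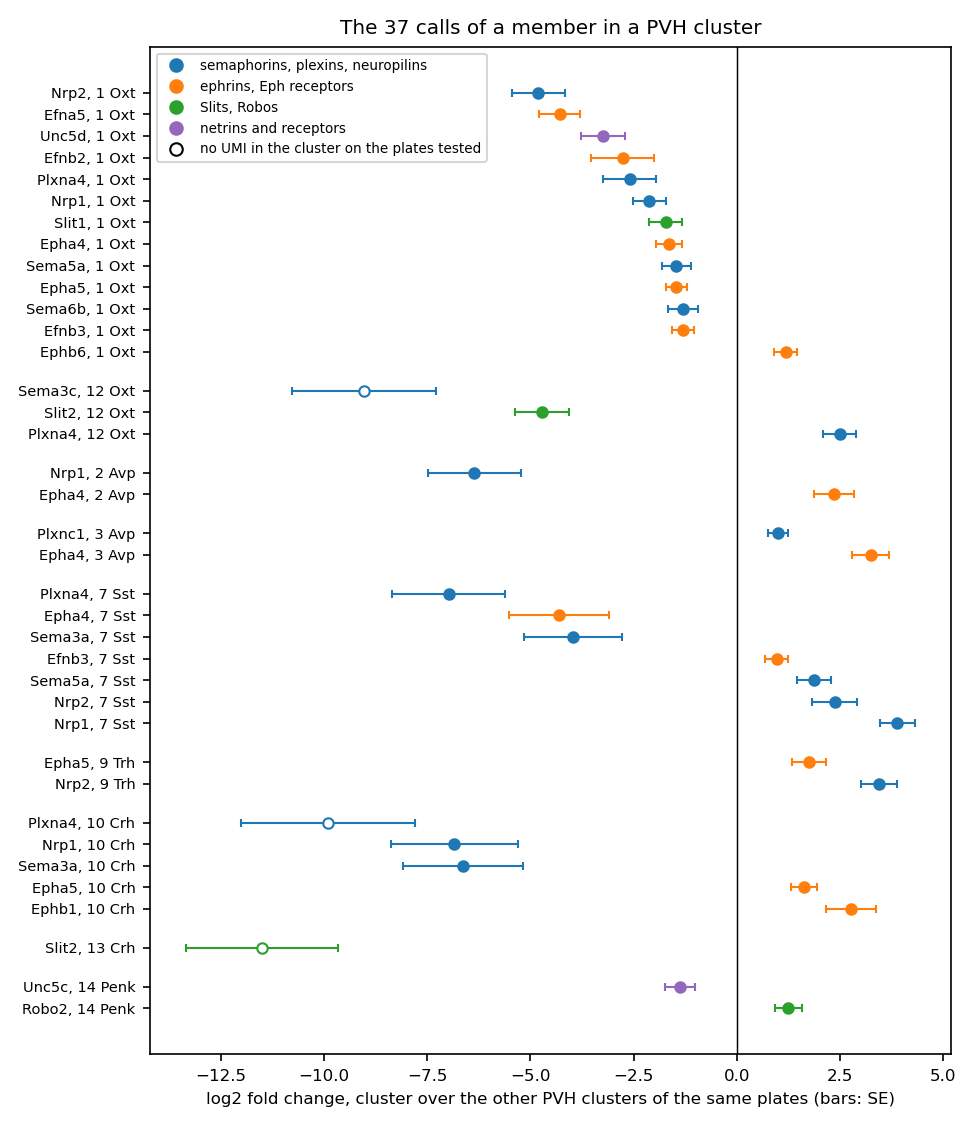
Log2 fold change of a cluster over the other PVH clusters of the same plates (x axis, bars are the SE) for the 37 calls (y axis: gene, cluster and its highest neuropeptide), coloured by family. Open circles have no UMI in the cluster on the plates tested, so that their fitted size is no bound; 12 of the 23 lower calls are in cluster 1.

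The neuropilins, which bind class 3 semaphorins and also vascular growth factors, had the smallest p-values of all members over the clusters (Nrp1 adjusted p = 3.29e-10, Nrp2 3.04e-07, edgeR). Nrp1 was high in the Sst cells of cluster 7, where 33 of 35 cells had a UMI. Its level there ran from 107 to 385 CPM with a median of 208 over 8 plates, while the other clusters of the same plates ran from 1.98 to 31.3 CPM with a median of 11.8. The ranges did not overlap, and Nrp1 was higher in cluster 7 on 8 of 8 plates, by 3.89 ± 0.42 (log2, SE; adjusted p = 1.98e-06, edgeR). In cluster 8, the other Sst cluster, Nrp1 read 202, 244, 30.8 and 107 CPM on its 4 plates against 27.8, 23.6, 34.6 and 16.8 CPM in the other clusters. That was higher on 3 of 4 plates and did not pass the test (2.15 ± 0.62, adjusted p = 0.251, edgeR).

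At the other end, Nrp1 was nearly absent from clusters 2 and 10. In cluster 2 it read 0, 0.725, 0.268, 1.20 and 0 CPM on 5 plates where the other clusters read 34.9, 45.5, 40.3, 43.1 and 10.2 CPM, a fall of 6.36 on the log2 scale (SE 1.12, adjusted p = 0.0134, edgeR). This call was lost when any of plates Q5, Q6, Q7 or Q8 was left out (adjusted p = 0.0568 to 0.0941). In cluster 10, 1 of 62 cells held 18 Nrp1 UMIs and the others none, against 11 to 42.7 CPM in the other clusters of its 7 plates (fell by 6.84 on the log2 scale, SE 1.53, adjusted p = 0.0131, edgeR). The call was not made on either set of plates by itself. Nrp1 was also lower in cluster 1, at 9.58 ± 9.42 against 37.1 ± 21.9 CPM (SD, n = 10), on 9 of 10 plates by 2.12 on the log2 scale (SE 0.40, adjusted p = 0.00153, edgeR), again on neither prefix alone.

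Nrp2 was highest in cluster 9, which is highest in Trh. It read 210, 231, 182 and 352 CPM there on plates Q5, Q6, Q7 and JM8, while the other clusters read 20.6, 13.6, 14.6 and 30.1 CPM, so that the ranges lay far apart. The difference was 3.43 ± 0.44 (log2, SE; adjusted p = 0.000382, edgeR) and held under each of its 11 alternatives. Nrp2 was also higher in cluster 7, with 28.6 to 163 CPM (median 92.5, 8 plates) against 6.23 to 36.8 (median 19.5), by 2.37 ± 0.54 (adjusted p = 0.00841, edgeR), a call that neither prefix by itself gave and that was lost with sums of at least 5 cells (adjusted p up to 0.289). In the Oxt cells of cluster 1 it had UMIs in 13 of 221 cells, with 0 to 11.9 CPM (median 0.293, 10 plates) against 11.3 to 67.0 CPM (median 41.2). The ranges overlapped by less than 1 CPM, and Nrp2 was lower on 10 of 10 plates by 4.81 on the log2 scale (SE 0.65, adjusted p = 7.28e-05, edgeR).

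Nrp1 and Nrp2 were both called higher in cluster 7 and lower in cluster 1, and Epha4, described below, was called lower in both. The sum set against cluster 1 held cluster 7, which gave at least 1435 of its 2946 Nrp1 UMIs and 548 of its 3023 Nrp2 UMIs. Cluster 9 gave at least 908 of those Nrp2 UMIs. The lower calls in cluster 1 are thus not separate from the higher ones. The lowest means were 0.44 CPM for Nrp1, in cluster 2, and 0.511 CPM for Nrp2, in cluster 4. The 250 bases before the RefSeq start of Nrp1, Nrp2 and Epha4 (GRCm38.p6) are shown to set their upstream sequences side by side. Capitals mark 3 motifs searched on both strands, namely TAATTA, the core read by many homeodomain factors, ATGCAAAT, the octamer read by POU factors, and ACGTG, a core read by bHLH-PAS dimers, the class to which Sim1 belongs. Nrp1 lies on the + strand at chr8:128358823-128359072, Nrp2 on the + strand at chr1:62703067-62703316 and Epha4 on the - strand at chr1:77515089-77515338.
Nrp1: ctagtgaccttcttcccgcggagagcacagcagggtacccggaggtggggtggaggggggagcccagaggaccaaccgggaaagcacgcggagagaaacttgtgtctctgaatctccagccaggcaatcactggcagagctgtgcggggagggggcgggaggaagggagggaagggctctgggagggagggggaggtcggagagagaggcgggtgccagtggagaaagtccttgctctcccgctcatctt
Nrp2: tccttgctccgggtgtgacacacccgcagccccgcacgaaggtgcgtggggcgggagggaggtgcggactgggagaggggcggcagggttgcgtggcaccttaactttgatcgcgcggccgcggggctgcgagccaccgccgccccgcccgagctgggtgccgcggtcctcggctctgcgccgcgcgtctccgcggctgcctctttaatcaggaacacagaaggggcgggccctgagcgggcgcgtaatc
Epha4: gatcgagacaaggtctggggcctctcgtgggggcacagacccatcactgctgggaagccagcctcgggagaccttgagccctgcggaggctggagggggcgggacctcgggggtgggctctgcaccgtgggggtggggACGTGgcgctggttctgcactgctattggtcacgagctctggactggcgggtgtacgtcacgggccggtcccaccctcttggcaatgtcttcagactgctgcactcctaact
The Epha4 window held 1 ACGTG, and no other match was found in the 3 windows. Over all RefSeq promoters of this table, 16.6% held ACGTG, 4.84% TAATTA and 1.60% ATGCAAAT in windows of the same length. G and C made up 64.4%, 72.4% and 66.0% of the 3 sequences.

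Among the plexins, the signal-transducing receptors of semaphorins, Plxna4 had the smallest p over the clusters (adjusted p = 3.32e-05, edgeR). It was highest in cluster 12, the smaller Oxt cluster, with 35.7 to 235 CPM (median 106, 6 plates) against 9.97 to 27.0 CPM (median 19.3) in the other clusters. The ranges did not overlap, and the difference of 2.49 ± 0.40 (log2, SE; adjusted p = 0.00297, edgeR) held without each plate in turn and rests on AL and JM plates, since no Q plate held cells of cluster 12. In cluster 1, the larger Oxt cluster, it read 0 to 11.9 CPM (median 4.87, 10 plates) against 7.16 to 69.3 CPM (median 27.4), lower by 2.60 on the log2 scale (SE 0.64, 9 of 10 plates, adjusted p = 0.0121, edgeR), though not on the Q plates by themselves (0.427).

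Plxna4 had no UMI in the 62 cells of cluster 10 (limit of 3 cells with a UMI, 4.84%), against 9.97 to 32.4 CPM in the other clusters of the 7 plates. The level was at least 37.9-fold lower, with 3 UMIs over its 60 cells on those plates as the floor (adjusted p = 0.0140, edgeR). It was also lower in cluster 7, where 1 cell of 35 held 1 UMI and the pooled level was 90.9-fold lower (counting interval 16.3 to 3592, adjusted p = 0.00277, edgeR). Neither prefix by itself gave these 2 calls, and that in cluster 7 was also lost with sums of at least 5 cells. Plxnc1, found in 36 of 36 cells of cluster 3, read 211, 274, 368, 136 and 222 CPM there on plates AL5, AL6, JM6, JM7 and JM8 against 93.3, 82.7, 125, 137 and 140 CPM elsewhere. It was higher on 4 of 5 plates by 0.99 ± 0.25 (log2, SE; adjusted p = 0.0471, edgeR), and the call was lost without AL5, AL6, JM6 or JM8 (adjusted p = 0.0588 to 0.212), with sums of at least 5 cells and in thinned cells (up to 0.252). Plxnd1, the receptor of Sema3e, was found in 26 cells and passed over all clusters (adjusted p = 0.0194, edgeR) but in no single cluster.

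**Figure D5:**
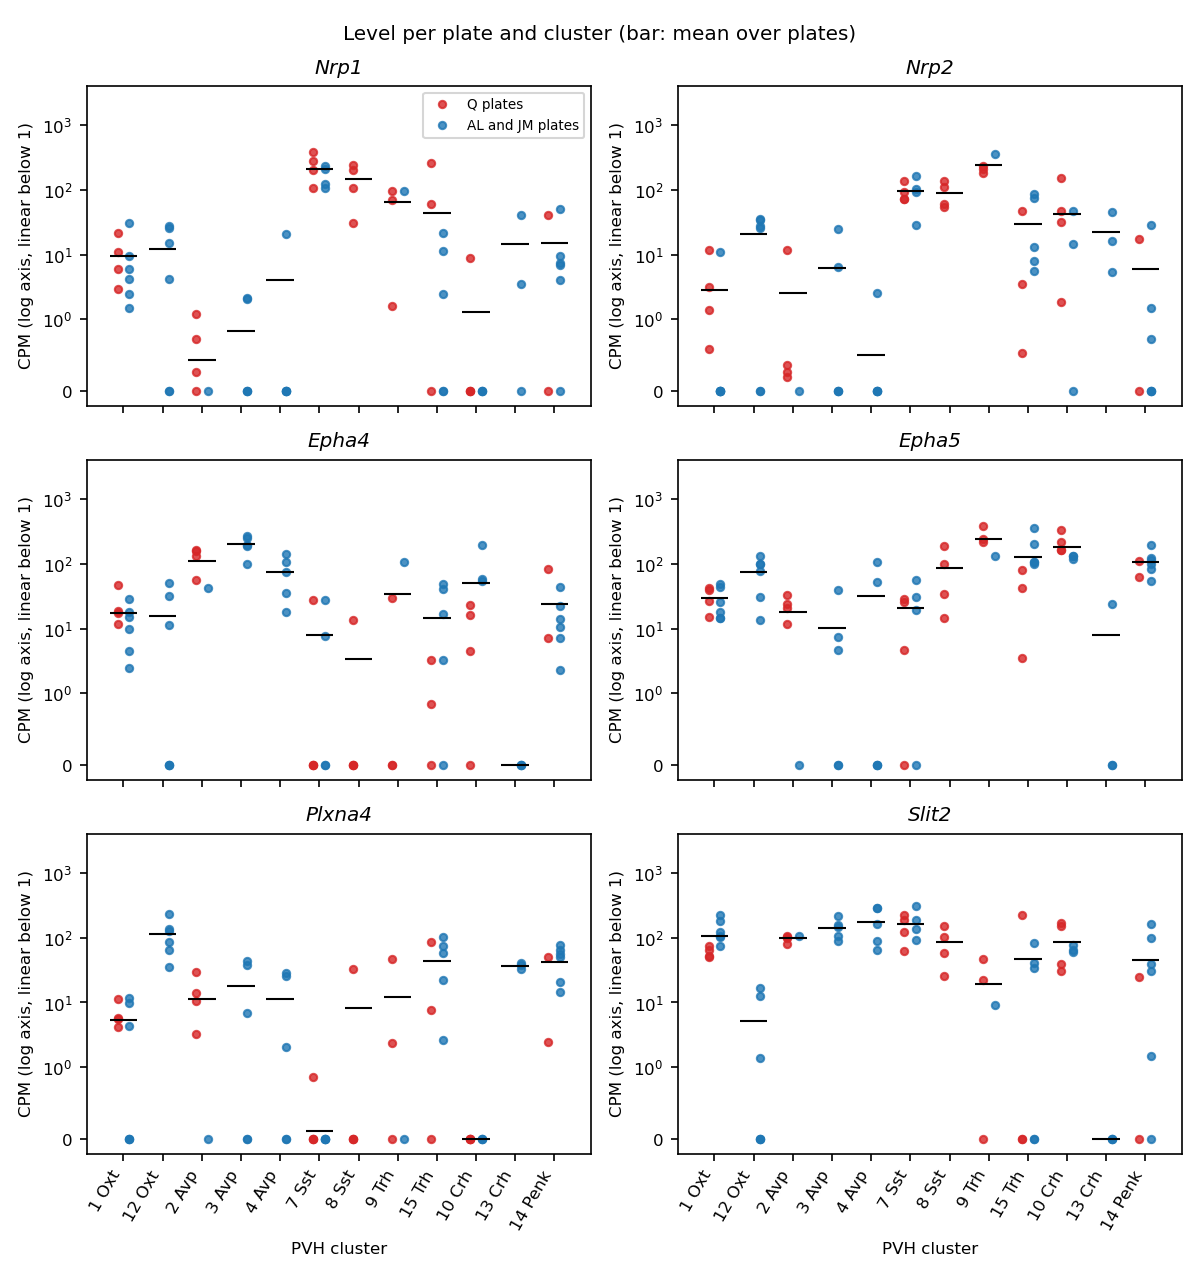
CPM of 6 receptors and ligands (y axis, log scale, linear below 1) per plate in the 12 PVH clusters (x axis, with the highest neuropeptide). Points are plates, red for Q and blue for AL and JM, and bars are means over plates; in cluster 7 all 8 plates lie at or above 107 CPM for Nrp1, and in cluster 10 all 7 plates lie at 0 for Plxna4.

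Of the semaphorins, 4 passed over all clusters. Sema3c and Sema3a are secreted ligands that act through neuropilins, and Sema5a and Sema6a are membrane-bound. Sema3c (adjusted p = 4.69e-06, edgeR) had mean levels of 50.3, 48.9 and 41.2 CPM in clusters 14, 10 and 15, with SDs of 66.2, 51.2 and 48.3 CPM over plates. In cluster 12 none of 35 cells had a UMI, while the other clusters of those 6 plates held 7.67 to 61.3 CPM (median 22.8), at least 34.1-fold lower with a floor of 3 UMIs over the cluster (adjusted p = 0.0256, edgeR). That call was lost without AL5, JM6, JM7 or JM8 (adjusted p = 0.0531 to 0.0858) and with sums of at least 5 cells (0.309).

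Sema3a was found in 88 PVH cells, of which 62 were in cluster 1, the largest cluster, where it was not called. Its highest mean was 31.1 ± 35.9 CPM (SD, n = 4) in cluster 9. In cluster 10 it had 1 UMI in 62 cells, a pooled level 75.6-fold lower than in the other clusters (counting interval 13.6 to 2988, adjusted p = 0.0116, edgeR), and neither prefix alone gave the call. In cluster 7 it had 5 UMIs in 3 cells against 5.17 to 15.2 CPM elsewhere, lower on 7 of 8 plates by 3.97 on the log2 scale (SE 1.19, adjusted p = 0.0480, edgeR), and the call was lost without any of plates Q5, Q6, Q7, Q8, AL5, JM6 or JM7 (adjusted p = 0.0514 to 0.112). It was kept under 2 of 15 alternatives, and also lost under relative log expression size factors, with no filter, with no plate block, with sums of at least 5 cells and on either prefix (adjusted p up to 0.752). Sema5a rose there on 8 of 8 plates, from 30.4 ± 10.6 CPM in the other clusters to 127 ± 65.5 CPM (SD, n = 8), by 1.86 ± 0.41 (log2, SE; adjusted p = 0.00752, edgeR), a call that neither prefix alone gave.

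Over all clusters Sema5a passed narrowly (adjusted p = 0.0348, edgeR) and was lost without Q8, AL5, AL6, JM5, JM6 or JM8 (adjusted p = 0.0546 to 0.126). In cluster 1 it fell from 48.0 ± 15.1 to 18.0 ± 11.4 CPM (SD, n = 10), lower on 9 of 10 plates by 1.47 on the log2 scale (SE 0.35, adjusted p = 0.00876, edgeR), though not on the Q plates by themselves (0.396). Sema6a (adjusted p = 0.0123, edgeR) reached its top mean in cluster 9, at 92.2 ± 67.2 CPM (SD, n = 4), and was called in no single cluster. Without Q5, AL5 or JM8 it did not pass over all clusters (adjusted p = 0.0515 to 0.0766).

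The Eph receptors are receptor tyrosine kinases that bind ephrins on neighbouring cells, and 5 of them passed over all clusters, namely Epha5, Epha4, Epha10, Ephb1 and Epha7. Epha4, which binds ephrins of both the A and B classes, was highest in the Avp clusters 2, 3 and 4. In cluster 3 it read 191, 99.2, 267, 247 and 191 CPM on plates AL5, AL6, JM6, JM7 and JM8, against 12.2, 37.1, 23.6, 8.08 and 31.9 CPM in the other clusters. The lowest value in cluster 3 was above the highest elsewhere, and the difference of 3.24 ± 0.45 (log2, SE; adjusted p = 0.00103, edgeR) held under each of its 12 alternatives. No Q plate entered it.

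In cluster 2, whose cells came mostly from Q plates, Epha4 read 55.4, 159.5, 131, 162 and 42.1 CPM on plates Q5, Q6, Q7, Q8 and JM8 against 9.62, 14.2, 24.0, 27.0 and 41.4 CPM. It was higher on 5 of 5 plates, on JM8 by less than 1 CPM, with a fold change of 2.35 ± 0.49 (log2, SE; adjusted p = 0.0358, edgeR). That call was lost without any of the 4 Q plates (adjusted p = 0.115 to 0.164) and with no filter on low counts. In cluster 4 Epha4 stood at 75.0 ± 50.8 CPM (SD, n = 5), and in cluster 13 it read 0 on the 3 tested plates, neither with a call. It was lower in cluster 1, at 17.3 ± 12.7 against 54.0 ± 18.7 CPM (SD, n = 10), by 1.64 on the log2 scale (SE 0.33, 10 of 10 plates, adjusted p = 0.00252, edgeR), though not on the Q plates by themselves (0.194). In cluster 7 it had UMIs in 3 of 35 cells and was lower on 8 of 8 plates by 4.32 on the log2 scale (SE 1.21, adjusted p = 0.0336, edgeR), a call lost without Q5, Q6, Q8, JM5 or JM6 (adjusted p = 0.0683 to 0.0934), with no plate block, with sums of at least 5 cells and on either prefix (up to 0.289).

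Epha5, which binds ephrin-A ligands, was high in clusters 9 and 10 and low in cluster 1. In cluster 9 it read 237, 382, 214 and 131 CPM on plates Q5, Q6, Q7 and JM8 against 48.9, 43.9, 75.3 and 66.0 CPM, higher on 4 of 4 plates by 1.75 ± 0.42 (log2, SE; adjusted p = 0.0494, edgeR). This difference lost its call without Q5, Q6 or Q7 (adjusted p = 0.126 to 0.293), with sums of at least 5 cells and in thinned cells. In cluster 10 it ran from 118 to 329 CPM (median 162, 7 plates) against 27.1 to 73.9 CPM (median 54.6), with no overlap, by 1.62 ± 0.32 (adjusted p = 0.00571, edgeR), though not with only AL and JM plates (0.382). Summed oligodendrocyte markers were also highest in these clusters, at 107 CPM in cluster 9 and 161 CPM in cluster 10 against 17.9 to 63.0 CPM in the other PVH clusters. In cluster 9 only 2 of the 6 markers had a UMI, in 16 of 25 cells, with Olig2, Opalin, Mog and Mag at 0. In cluster 10, 4 markers had a UMI, in 17 of 62 cells, with Olig2 and Mog at 0. The part of such RNA in the higher Epha5, Nrp2 and Ephb1 there was not tested. In cluster 1 it ran from 14.4 to 49.3 CPM (median 26.4, 10 plates) against 44.7 to 133 CPM (median 76.9), with overlapping ranges but lower on 10 of 10 plates by 1.46 on the log2 scale (SE 0.26, adjusted p = 0.00111, edgeR), though not on the Q plates by themselves (0.0993).

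Ephb1 was found in 34 of the 62 cells of cluster 10. It ran there from 36.9 to 242 CPM (median 73.7, 7 plates), above the 4.83 to 18.6 CPM (median 14.4) of the other clusters on every plate, by 2.76 ± 0.60 (log2, SE; adjusted p = 0.0115, edgeR), though neither prefix alone gave the call. Ephb6, an Eph receptor without kinase activity, was the only member called higher in cluster 1. It rose from 16.4 ± 8.94 to 31.0 ± 10.1 CPM (SD, n = 10) on 10 of 10 plates, by 1.18 ± 0.27 (adjusted p = 0.00771, edgeR), and was not called at equal totals per cell or with only AL and JM plates. Epha10, also without kinase activity, and Epha7 were highest in cluster 14, at 42.5 ± 32 and 28.3 ± 31.9 CPM (SD, n = 8), and neither was called in a single cluster. Epha7 did not pass over all clusters without AL5 or JM6 (adjusted p = 0.0515 to 0.105).

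Of the ephrins, the GPI-anchored Efna5 and the transmembrane Efnb2 passed over all clusters. Efna5 was found in 17 of 221 cells of cluster 1. It ran there from 0 to 7.43 CPM (median 1.58, 10 plates) against 19.5 to 73.9 CPM (median 39.8) in the other clusters, without overlap, lower by 4.29 on the log2 scale (SE 0.49, adjusted p = 1.46e-05, edgeR), and the call held under each of its 18 alternatives. Efnb2 was lower in cluster 1 on 10 of 10 plates, at 1.32 ± 1.82 against 6.78 ± 4.22 CPM (SD, n = 10; 2.76 lower on the log2 scale, SE 0.77, adjusted p = 0.0248, edgeR), and the call was lost without Q6 or JM7 (adjusted p = 0.0507 to 0.0512), with no filter, with no plate block and on either prefix (up to 0.356).

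Efnb3 was lower in cluster 1, at 61.8 ± 31.4 against 148 ± 36.1 CPM (SD, n = 10), by 1.31 on the log2 scale (SE 0.27, 10 of 10 plates, adjusted p = 0.00340, edgeR), though not on the Q plates by themselves (0.171). It was higher in cluster 7, at 234 ± 112 against 111 ± 35 CPM (SD, n = 8), on 6 of 8 plates by 0.97 ± 0.28 (adjusted p = 0.0362, edgeR), a call lost without Q5, Q6, Q8, JM5 or JM6 (adjusted p = 0.0615 to 0.12), with no filter, with sums of at least 5 cells and on either prefix (up to 0.446).

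Slit2 is a secreted repellent that signals through Robo1 and Robo2. It was found in 77.8% to 88.9% of the cells of clusters 1 to 4 and in 52.4% to 71.4% of those of clusters 7, 8 and 10. Its mean level ran from 84.3 to 178 CPM in clusters 1, 2, 3, 4, 7, 8 and 10 and from 0 to 47.2 CPM in clusters 9, 12, 13, 14 and 15, of which 12 and 13 were called lower. In cluster 12 it read 0, 16.8, 12.7, 1.41, 0 and 0 CPM on plates AL5, AL6, JM5, JM6, JM7 and JM8 against 88.8 to 144 CPM (median 118) in the other clusters. The ranges were far apart, and the fall of 4.71 on the log2 scale (SE 0.66, adjusted p = 0.00113, edgeR) held under each of its 13 alternatives. Of the Oxt clusters, cluster 1 had a Slit2 UMI in 172 of 221 cells and cluster 12 in 6 of 35, and the 2 clusters were not tested against each other.

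In cluster 13 Slit2 had no UMI on its 3 tested plates against 110.1, 94.2 and 111 CPM in the other clusters. With a floor of 3 UMIs over its 10 cells on those plates, the level there was at least 29.8-fold lower (adjusted p = 8.53e-06, edgeR). On plates with fewer than 3 cells of cluster 13, which the test left out, 3 of its cells held 43 Slit2 UMIs. Over all 16 cells the pooled level was 32.4 CPM, so that fold does not hold for the whole cluster. Slit1 was lower in cluster 1, at 12.9 ± 11.9 against 36.7 ± 14.7 CPM (SD, n = 10), by 1.72 on the log2 scale (SE 0.40, 10 of 10 plates, adjusted p = 0.00825, edgeR), a call that neither prefix gave (adjusted p up to 0.291). Slit1 did not pass over all clusters (adjusted p = 0.203, edgeR). Slit3 passed over all clusters (adjusted p = 0.000384, edgeR), with its highest mean of 38.5 ± 71.8 CPM (SD, n = 8) in cluster 15, and was called in no single cluster. With sums of at least 5 cells and on the Q plates it did not pass (adjusted p up to 0.171).

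Robo1 and Robo2 passed over all clusters, and Robo3 and Robo4 had too few UMIs to be tested. Robo2 was highest in cluster 14, with 31.4 to 141 CPM (median 105, 8 plates) against 10.3 to 65.8 CPM (median 42.1). It was higher there on 7 of 8 plates by 1.24 ± 0.32 (log2, SE; adjusted p = 0.0323, edgeR), a call lost without Q5, AL5, AL6, JM6 or JM7 (adjusted p = 0.0656 to 0.104). It was kept under 6 of 16 alternatives, and also lost with no filter on low counts, with no plate block, with sums of at least 5 cells and on either prefix (adjusted p up to 0.743). Robo1 had no UMI in the 221 cells of cluster 1 (limit of 3 cells with a UMI, 1.36%) or in the 53 cells of cluster 2, and was most frequent in clusters 7, 13, 14 and 15, with 8 of 35, 5 of 16, 10 of 57 and 7 of 60 cells (adjusted p over all clusters = 0.00278, edgeR; up to 0.327 under the alternatives).

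In the netrin family all 4 Unc5 receptors, which mediate repulsion, passed over all clusters, and Dcc and Neo1 did not. Unc5d had mean levels of 207 ± 139 CPM (SD, n = 4) in cluster 9 and 102 CPM in cluster 7 but 4.38 to 10.8 CPM in clusters 1, 2, 3 and 4. In cluster 1 it ran from 0 to 29.4 CPM (median 4.67, 10 plates) against 35.1 to 104 CPM (median 45.4), without overlap, lower by 3.24 on the log2 scale (SE 0.54, adjusted p = 0.000547, edgeR), though not on the Q plates by themselves (0.0582). Unc5c had its highest means, 74.6 to 88.1 CPM, in the Avp clusters 2, 3 and 4 and was called lower in cluster 14, at 26.8 ± 14.6 against 57.9 ± 13.1 CPM (SD, n = 8), on 8 of 8 plates by 1.38 on the log2 scale (SE 0.37, adjusted p = 0.0374, edgeR). That call was lost without Q5, AL5, AL6, JM6, JM7 or JM8 (adjusted p = 0.0598 to 0.116). It was kept under 4 of 16 alternatives, and also lost under relative log expression size factors, with no filter, with no plate block, in thinned cells and on either prefix (adjusted p up to 0.635). Unc5a and Unc5b had means of at most 17.9 and 14.8 CPM, and Unc5a did not pass without AL5 (adjusted p = 0.0541), Unc5b without Q7, AL5 or JM8 (0.0583 to 0.121) and Unc5c without JM6 (0.0510).

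Cluster 1, the largest, had 12 of its 44 tested members lower and 1 higher, against 6.3% of all genes lower and 5.6% higher. The lower members came from all 4 families: the receptors Nrp1, Nrp2, Plxna4, Epha4, Epha5 and Unc5d and the ligands Efna5, Efnb2, Efnb3, Sema5a, Sema6b and Slit1. The median log2 fold change of the 44 members was -0.70, beside -0.08 for all genes tested. Sema6b, a membrane-bound semaphorin, fell from 20.8 ± 6.17 to 8.24 ± 3.61 CPM (SD, n = 10) on 10 of 10 plates and was lost without Q7 or AL6 (adjusted p = 0.0545 to 0.0588, edgeR), with no filter and on either prefix (up to 0.345). In the other 11 clusters the median over the members lay between -1.18 and -0.04, beside -0.82 to -0.27 for all genes.

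The likeness of the 23 patterns was measured as Pearson's r of log2(mean CPM + 1) over the 12 clusters, for all 253 pairs, as a description with no test, since the clusters share plates and depth. The most alike pairs were Slit2 and Unc5c (r = 0.93), Epha10 and Epha7 (0.91), Nrp2 and Unc5d (0.89), and Efna5 and Unc5d (0.84). The least alike were Nrp1 and Unc5b (-0.74), and Epha4 and Nrp1 stood at -0.65.

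For pairs of a ligand and a receptor known to bind, cells that held both were counted. A count of cells with both depends on how often each gene was found, and none was compared with the number expected from the single genes. Efnb3 and Epha4 (487 and 194 cells) were found together in 141 of 664 PVH cells (21.2%, 18.2 to 24.5), Slit2 and Robo2 in 113 (17.0%, 14.2 to 20.1), Efna5 and Epha5 in 102 (15.4%, 12.7 to 18.3), and Slit1 and Robo2 in 82 (12.3%, 9.94 to 15.1). By cluster the counts differed, without a test. In cluster 3, 27 of 36 cells held both Efnb3 and Epha4 (75.0%, 57.8 to 87.9), and in cluster 9, 13 of 25 held both Efna5 and Epha5 (52.0%, 31.3 to 72.2). Slit2 and Robo2 met in 65 of 221 cells of cluster 1 (29.4%, 23.5 to 35.9) and in 3 of 35 cells of cluster 12.

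The other pairs were found together in 0 to 75 cells. Sema3a (88 cells) and Nrp1 (139) were both present in 17 cells (2.56%, 1.5 to 4.07) and Sema3c and Nrp1 in 7 (1.05%, 0.425 to 2.16). Of the further semaphorin pairs, Sema5a with Plxna3 was the most frequent, in 68 cells, followed by Sema6d with Plxna1 in 60 and Sema6a with Plxna2 in 35. Sema3f with Nrp2 was found in 10 cells, Sema4d with Plxnb1 in 6, and Sema3e with Plxnd1 and Sema5b with Plxna1 in 1 cell each. Ephb2 met Efnb3 in 75 cells and Efnb2 in 7, and Ephb1 met Efnb2 in 11. Epha7 met Efna5 in 18 cells, and Epha4 met Efna3 in 50 and Efna5 in 42. Robo1 met Slit1 and Slit2 in 19 cells each and Slit3 in 2, while Robo2 met Slit3 in 42. Ntn1 was found with Unc5c in 7 of its 8 cells, with Neo1 in 5, with Dcc in 2 and with Unc5a in 1. Ntn4 was found with Neo1 in 5 cells, and no cell held both Draxin and Dcc.

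Downstream of these receptors, 44 genes that relay their signals to the cytoskeleton were listed by known function. Of 41 tested, 9 passed over all clusters, near the 21.2% of all genes. The 3 with the smallest p were Chn1 and Chn2, chimaerins that turn off Rac and act below Eph receptors and semaphorin receptors, and the small GTPase Cdc42. Chn2 was higher in cluster 7 on 8 of 8 plates, at 48.7 ± 33.5 against 2.47 ± 2.12 CPM (SD, n = 8), by 4.36 ± 1.09 (log2, SE; adjusted p = 0.0162, edgeR). Chn1 was lower in clusters 1, 3 and 4, in cluster 1 at 84.6 ± 30.5 against 161 ± 39.6 CPM (SD, n = 10) by 0.86 on the log2 scale (SE 0.15, adjusted p = 0.000921, edgeR). Cdc42 was higher in cluster 7 (0.52 ± 0.12) and lower in clusters 2 and 4 (by 0.91 and 1.01 on the log2 scale, SE 0.17 and 0.18; adjusted p = 0.00977, 0.0195 and 0.00953, edgeR). Of 24 further partners of these families, such as the Flrt proteins, which bind Unc5 receptors, 22 were tested and 8 passed, with the smallest p for Chl1 (adjusted p = 2.03e-10, edgeR), a co-receptor for class 3 semaphorins whose top mean, 403 ± 105 CPM (SD, n = 8), was in cluster 7.

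The prefix of a plate went with depth and with which clusters it held, so the Q plates were compared with the AL and JM plates within cluster 1, which was on every plate. Of 40 members, none was called higher on the Q plates and Slit2 was called lower, against 6.56% and 4.51% of all genes, while at an unadjusted p under 0.05 edgeR had 0 higher and 5 lower and DESeq2 called 0 higher and 3 lower. Of all genes, DESeq2 called 14.7% in either direction. Slit2 read 50.4 to 74.5 CPM (median 58.2) on the 4 Q plates and 75.8 to 221 CPM (median 115) on the other 6, without overlap, a fall of 0.92 on the log2 scale (SE 0.27, adjusted p = 0.0288, edgeR). The call was lost without Q5, Q7, Q8, JM5 or JM6 (adjusted p = 0.0554 to 0.0988), and prefix, animals and sequencing run cannot be told apart.

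Cluster 6, in which 96.0% of 25 cells held Gad2, a GABA-synthesis enzyme, and none Slc17a6, gave a comparison from outside the PVH. Of 37 members tested on 5 plates, 2 were lower than in the PVH clusters and none higher, against 3.77% and 0.276% of all genes. At an unadjusted p under 0.05 edgeR had 0 higher and 7 lower, and DESeq2 called 0 higher and 2 lower, of which Slit2 was shared with edgeR and Plxna2 was not among them. Of all genes, DESeq2 called 5.53% in either direction. Slit2 read 15.9, 22.1, 0.922, 0 and 0 CPM on plates Q5, Q6, Q7, JM6 and JM8 against 65.9, 88.7, 58.1, 104 and 84.7 CPM (fell by 4.36 on the log2 scale, SE 1.23, adjusted p = 0.0298, edgeR). Plxna2, a receptor of Sema6a, had no UMI in 25 cells (limit of 3 cells with a UMI, 12%), against 5.93 to 30.6 CPM. It was at least 12-fold lower with a floor of 3 UMIs over the 22 cells on the plates tested (adjusted p = 0.0306, edgeR). Both calls were lost without any of the 5 plates (adjusted p = 0.0561 to 0.106, edgeR), where 0.798% to 1.1% of all genes were called in either direction. Slit2 was also lost under relative log expression size factors and with no plate block, and Plxna2 with no filter.

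Markers of other cell types were checked in the same cells. Oligodendrocyte markers had the highest summed level, 17.9 to 161 CPM in the PVH clusters and highest in clusters 10 and 9. Over all PVH cells 5 of 6 markers were found and Mog was at 0, but cluster 10 held 4 of them and cluster 9 held 2. Summed levels of markers of astrocytes, microglia, endothelium, pericytes, ependyma and oligodendrocyte precursors were at most 14.3 CPM in any cluster, and Cx3cr1, C1qa, Cldn5, Cdh5 and Ccdc153 were at 0. The part of such RNA in the results was not tested.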

How the data were processed

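Cells of 10 plates were prepared by Smart-SCRB, a 3′ method with UMIs. The submitters' processing notes name Trimmomatic 0.36, STAR 2.5.3a and GRCm38.p5. The labels and the methods differ on the sequencer. The authors deposited raw UMI counts per gene and well, not normalised, and a table of cells and clusters, whose numbers were used as given. The sources used here do not say whether counting used strand, so overlapping and antisense genes and close paralogs are uncertain.

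UMIs were summed per plate and cluster (3 cells or more) and tested with edgeR 4.0.16 (quasi-likelihood, TMM, filterByExpr, R 4.3.3), and with DESeq2 1.42.0 as an alternative. The plate was a block in all fits but that between plate prefixes. CPM is UMIs per 1000000 of the sum, and SE is the log2 fold change over the square root of F. The code was tested on simulated data with 32-fold changes only, which does not show how often smaller differences would be found. Depth was 50646 to 1078101 UMIs per cell.

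The members, lists and pairs were chosen with earlier results of these data known. Named are members past the test over all clusters, the largest call in each direction per cluster, the most detected and undetected members, the 3 effectors with the smallest p, calls for prefix and cluster 6, and both partners of each pair; the remaining calls were named after their values were seen. Other settings were another normalisation, no filter, no block, 5 cells, thinning, each prefix and each plate left out.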

Additional observations from a re-analysis of the deposited data

Results flagged for a closer look

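In 44 groups of 4 to 10 plates, 4 had a plate far from the others by Dixon's criterion. Its chance rate of about 1 in 20 groups is for normally distributed values. A group with 0 on every plate but 1 always meets the criterion, so that rate does not apply to such groups. Unc5d in cluster 1 read 29.4 CPM on plate JM5, and the nearest plate 12.3 CPM. Nrp1 in cluster 10 read 8.98 CPM on plate Q6, all from 1 cell, and 0 on the other plates. Plxna4 in cluster 7 read 0.864 CPM on plate Q5 and Sema3a in cluster 10 read 1.37 CPM on plate JM8, each from 1 UMI, with 0 on all other plates of Plxna4 in cluster 7 and of Sema3a in cluster 10.

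The 254 wells that the cell table leaves out held 10423 UMIs of 68 members. Of these wells, 90 had under 1000 UMIs in total and held 15 member UMIs (964 CPM), and 164 had more and held 10408 (1151 CPM), beside 1039 CPM in the PVH cells.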

How the results depend on the processing

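The plate entered every fit as a block, except the comparison of plate prefixes within cluster 1, which had no block. With no replicate block, 27 members passed over all clusters (23 with it), 15 calls were higher (14) and 31 lower (23). Of all genes, 27.3% then passed over all clusters (21.2% with it). In single clusters, 0.0571% (cluster 8) to 6.44% (cluster 1) of all genes were called in either direction. On the Q plates alone 3 members passed over all clusters, 1 effector (9 with all plates), 6 calls were higher and 3 lower. There 3.21% of all genes passed over all clusters, and 0.0734% (cluster 8) to 1.74% (cluster 1) were called in a cluster. With only AL and JM plates 5 effectors passed, 7 calls were higher and 11 lower. There 14.6% of all genes passed over all clusters, and 0.67% (cluster 4) to 6.69% (cluster 1) were called in a cluster. DESeq2 gave 26 higher and 71 lower calls, 3 members lower on the Q plates in cluster 1 (1 with edgeR), which were 2 in thinned cells. Of all genes, DESeq2 called 1.84% (cluster 13) to 18.6% (cluster 1) in a cluster. Between prefixes DESeq2 called 14.7% of all genes, and edgeR in thinned cells 14%. Sums of at least 5 cells left 5 effectors, and 15 of the 23 members, with 8 lost, while 12.6% of all genes passed. Of members that could be tested with only AL and JM plates 15 were kept and 6 lost. In cluster 6, 1 member was lower under relative log expression size factors and 1 with no filter on low counts, against 2. Of all genes, 3.41% and 1.09% were called there in either direction. Members in over 40% of cells were 4 at 3 UMIs or more. Leaving out a plate at a time gave 17 to 24 members over all clusters, 7 to 9 effectors, 10 to 17 higher and 19 to 24 lower calls, 0 lower members in cluster 6 and 0 to 2 on the Q plates. Of all genes, 14.5% to 20.3% then passed over all clusters, and 0.0396% (cluster 8) to 11.4% (cluster 1) were called in a PVH cluster in either direction. In cluster 6 the share of all genes was 0.798% to 1.1%, and between prefixes 7.38% to 10.8%. No call reversed. Of the settings tried on single calls of a cluster, 445 kept the call and 118 lost it, and over all clusters 352 kept it and 57 lost it. The cause of these changes was not tested. Clusters 3, 4, 12 and 13 could not be fitted on the Q plates alone, 2, 8 and 9 with only AL and JM plates, 4 and 13 with 5 cells a sum, and 13 in thinned cells.

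Few cells per plate, 3 in the smallest sums, limit clusters 4, 9 and 13, and a gene with a few UMIs in a cluster was read only as low at this depth.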
